A study of Homo sapiens with 48 samples.

Results

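Genes of the response to low oxygen and of glycolysis were followed through the treatment of 8 human cancer cell lines with the proteasome inhibitor carfilzomib. The set held 34 genes, given as a list of symbols and matched to the rows of the deposited matrix of raw read counts, 34 of its 33892 rows. By role it covered 3 genes of oxygen sensing, 2 glucose transporters, 15 enzymes of glycolysis and its side branches, 4 secreted or surface proteins, 2 receptors of mitophagy, 3 enzymes of collagen hydroxylation and disulfide formation, and 5 other targets of hypoxia. The study, whose title concerns a response driven by HSP70 chaperones, compared carfilzomib, an irreversible inhibitor of the proteasome, with its solvent DMSO. The lines came from cancers of the colon (DLD-1, RKO), lung (H-1299, H-23) and pancreas (CAPAN-2, PANC-1) and from multiple myeloma (RPMI, H-929). Each line gave 3 DMSO and 3 carfilzomib libraries, labelled as biological triplicates, 48 in all. Treatment lasted 24 h, at the line's own IC50 for proteasome activity, so that line and drug concentration cannot be told apart (the concentrations were not used here). All were established lines grown in dishes, none was stated to be genetically altered, and the labels name no culture in low oxygen.

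HIF-1 is a transcription factor made of an oxygen-labile subunit, encoded by HIF1A, and a stable partner, encoded by ARNT. In oxygenated cells prolyl hydroxylases of the EGLN family modify the HIF1A protein, the VHL ubiquitin ligase binds it, and the proteasome degrades it, so that its level is set largely after transcription. When it persists it binds DNA at a short core motif and raises the transcription of glucose transporters, glycolytic enzymes, the angiogenic factor VEGFA and other targets. The deposited data are RNA counts and do not measure the HIF1A protein.

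The core motif reads ACGTG or GCGTG, and ACGTG is also part of the palindrome CACGTG, which other factors such as MYC and BHLHE40 bind. Promoter windows of 300 bases (250 before and 50 after the start, RefSeq, GRCh38.p14) were found for 30 of the 34 genes. For each gene only the first listed window was used, and other starts were not examined. The start used can lie inside the annotated span, as for P4HA2, so the motif counts depend on this choice. Of these windows, 17 (56.67%) held ACGTG on either strand, against 21.41% of all 35116 promoter windows of that length. For GCGTG the counts were 14 of 30 (46.67%) against 36.54%, and for either motif 24 of 30 (80%) against 48.45%. The windows compared were not matched for gene type or base composition. The set was listed as HIF targets and glycolytic enzymes, so these shares are no independent evidence. The 4 windows printed here were taken in equal number from each direction of the difference in response between the myeloma lines and the other 6 lines. Within each direction they belong to the genes with the largest difference, among those with a window that passed the test of this difference. The response was lower in the myeloma lines for ERO1A (chr14:52695509-52695808, minus strand) and PGK1 (chrX:78103998-78104297, plus strand). It was higher there for EGLN3 (chr14:33951025-33951324, minus strand) and ADM (chr11:10304823-10305122, plus strand). Each runs 5′ to 3′ along the gene, and capitals mark the motif, as CACGT or CACGC where it lies on the opposite strand.
ERO1A: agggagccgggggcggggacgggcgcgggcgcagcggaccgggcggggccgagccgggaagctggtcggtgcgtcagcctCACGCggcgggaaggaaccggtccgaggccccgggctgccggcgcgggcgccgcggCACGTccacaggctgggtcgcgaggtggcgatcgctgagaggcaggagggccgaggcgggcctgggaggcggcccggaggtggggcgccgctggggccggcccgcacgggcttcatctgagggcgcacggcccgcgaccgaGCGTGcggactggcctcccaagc
PGK1: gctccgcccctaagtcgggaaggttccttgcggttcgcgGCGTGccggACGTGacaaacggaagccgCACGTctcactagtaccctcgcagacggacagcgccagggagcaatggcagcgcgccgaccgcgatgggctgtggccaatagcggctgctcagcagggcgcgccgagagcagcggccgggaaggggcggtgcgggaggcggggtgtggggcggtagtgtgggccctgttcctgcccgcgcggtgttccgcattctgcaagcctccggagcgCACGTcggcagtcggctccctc
EGLN3: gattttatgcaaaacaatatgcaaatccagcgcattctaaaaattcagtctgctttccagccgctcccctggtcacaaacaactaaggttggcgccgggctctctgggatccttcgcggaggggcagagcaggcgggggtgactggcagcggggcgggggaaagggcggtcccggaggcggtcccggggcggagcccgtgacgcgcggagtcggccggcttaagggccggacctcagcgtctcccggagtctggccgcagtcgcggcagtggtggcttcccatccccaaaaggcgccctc
ADM: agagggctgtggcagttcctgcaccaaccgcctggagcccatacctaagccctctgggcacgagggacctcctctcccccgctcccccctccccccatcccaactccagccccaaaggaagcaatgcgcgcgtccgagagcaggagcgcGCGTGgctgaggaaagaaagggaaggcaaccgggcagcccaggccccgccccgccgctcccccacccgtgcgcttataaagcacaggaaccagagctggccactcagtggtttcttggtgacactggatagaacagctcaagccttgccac
The ERO1A window held 1 ACGTG, 114 bases before the start, and 2 GCGTG. In PGK1 there were 3 ACGTG, at 202 and 183 bases before and 28 bases after the start, and 1 GCGTG. The ADM window held 1 GCGTG, 101 bases before the start, and that of EGLN3 held neither motif. These letters are a description of the windows and show no binding.

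Library totals ran from 9.12 to 64.4 M (mega) counts. The plasma cell markers IRF4, POU2AF1, PRDM1 and TNFRSF17 marked H-929 and RPMI (IRF4 at a mean of 1615 and 460.0 CPM, counts per M after scaling of the libraries, and at most 0.497 in any library of the other 6 lines), while PTPRC, a pan-leukocyte gene, stayed at 4.77 CPM or less. The plasma cell gene SDC1 did not separate them, with a mean of 386 CPM in H-929 and 264 in RPMI against 313 in CAPAN-2 and 202 in PANC-1. Epithelial CDH1 was at a mean of 0.027 CPM in RKO and 0.015 in H-1299, where KRT19 was also near 0, and KRT8 and KRT18 were detected in both. Epithelial EPCAM was at a mean of 93.6 CPM (64.2 to 119) in the myeloma line RPMI, above RKO (8.76), H-23 (4.40) and PANC-1 (34.4). CDX2 was at 118 CPM in DLD-1 and 20.5 in RKO, whereas VIL1 reached a mean of 4.31 CPM in DLD-1 and 0.61 in RKO, and PDX1 was at 1.35 and 0.93 CPM in PANC-1 and CAPAN-2. The intestinal marker VIL1 was thus low in the colon lines, though its mean was highest in DLD-1. The pancreatic marker PDX1 had higher means in the colon lines RKO (7.27 CPM) and DLD-1 (3.45) than in the pancreatic lines. The lung marker NKX2-1 was not analysed here. Some rows limit what follows. The LDHA row carries an identifier that is not the one GENCODE 29 lists for LDHA. It held 120 counts in all 48 libraries together, so it was tested in no line. Another row of that identifier could be tested, but its replicates scattered. In H-929 it stood at 11.2, 132 and 80.8 CPM in DMSO and 5.34, 5.18 and 4.91 in carfilzomib (log2 change -3.85). In H-23 it stood at 5.12, 5.97 and 5.05, then 21.5, 5.78 and 151 (3.52). It is not read here as lactate dehydrogenase A. GPI also carries another identifier, shared with a further row of far fewer counts, and is reported as uncertain. The spans of 27 of the 34 genes overlap another annotated gene, 23 of them one on the other strand, and whether the counting used strand is not given in the sources used here, so values of these genes are uncertain to that extent. Annotated gene copies of GAPDH, TPI1, PGAM1, SLC2A3, EGLN1 and EGLN3 have rows of their own, with 0.339%, 4.65%, 2.26%, 6.60%, 3.29% and 15.05% of the counts of the parent row. For LDHA the 6 rows of copies held more counts than the LDHA row itself.

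Genes of the set changed with carfilzomib in every line, fewest in RKO and most in RPMI. A gene was called when the quasi-likelihood F test of edgeR, fitted to all genes of a line on its 6 libraries, gave a Benjamini-Hochberg adjusted p under 0.05. In RKO 3 of 31 tested genes were called higher (3.62% of all genes tested in that line) and 2 lower (5.29%). In DLD-1 15 of 32 were called higher (10.9%) and 2 lower (12.1%), and in PANC-1 14 of 31 higher (20.5%) and 2 lower (18.2%). H-23 had 14 higher (17.7%) and 4 lower (16.2%) of 33, and CAPAN-2 had 14 higher (25.7%) and 6 lower (26.7%) of 32. H-1299, with 16 higher (29.8%) and 9 lower (31.3%) of 30, H-929, with 11 higher (26.4%) and 13 lower (26.2%) of 31, and RPMI, with 17 higher (31.3%) and 14 lower (32.2%) of 33, had the most calls in all and the most lower calls. Changes of at least 2-fold were seen in 4 lines: 7 higher (16% of all genes) and 2 lower (4.29%) in H-929, 7 higher (10.8%) and 4 lower (8.94%) in RPMI, 2 higher (5%) and 2 lower (8.72%) in H-1299, and 2 higher (4.64%) and 0 lower (5.68%) in CAPAN-2. No gene of the set reached 2-fold in RKO, where 0.393% of all genes did so upward and 0.124% downward, in PANC-1 (1.46% and 0.777%), in H-23 (1.17% and 0.698%) or in DLD-1 (1.01% and 0.271%). The median log2 change of the tested genes lay between -0.078 in H-929 and 0.22 in RPMI, and that of all genes between -0.021 and 0.029. All values are shares of a library's counts, so fewer cells expressing a gene and less of its RNA per cell cannot be told apart. The RKO count of lower genes ranged from 0 to 3 when 1 library was left out, and the DLD-1 count of higher genes fell to 9 without carfilzomib replicate 3. Of 156 calls of single genes in single lines, 24 were lost in at least 1 of the 6 fits of a line that left out 1 library. Those lost in 3 or more were P4HA2 (6 fits) and NDRG1 (3) in RKO, PDK1 (5), BNIP3 (4), ENO2 (4) and ERO1A (3) in H-1299, BNIP3 and INSIG2 (4 each) in H-23, INSIG2 (4) and ENO2 (3) in H-929, GPI (4) in DLD-1 and CA9 (4) in RPMI. Scaling by library totals moved the median of all genes by -0.109 in H-1299, where it ended the calls of HK1, ENO2 and BNIP3, and by at most 0.043 in size in the other lines.

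**Figure D1:**
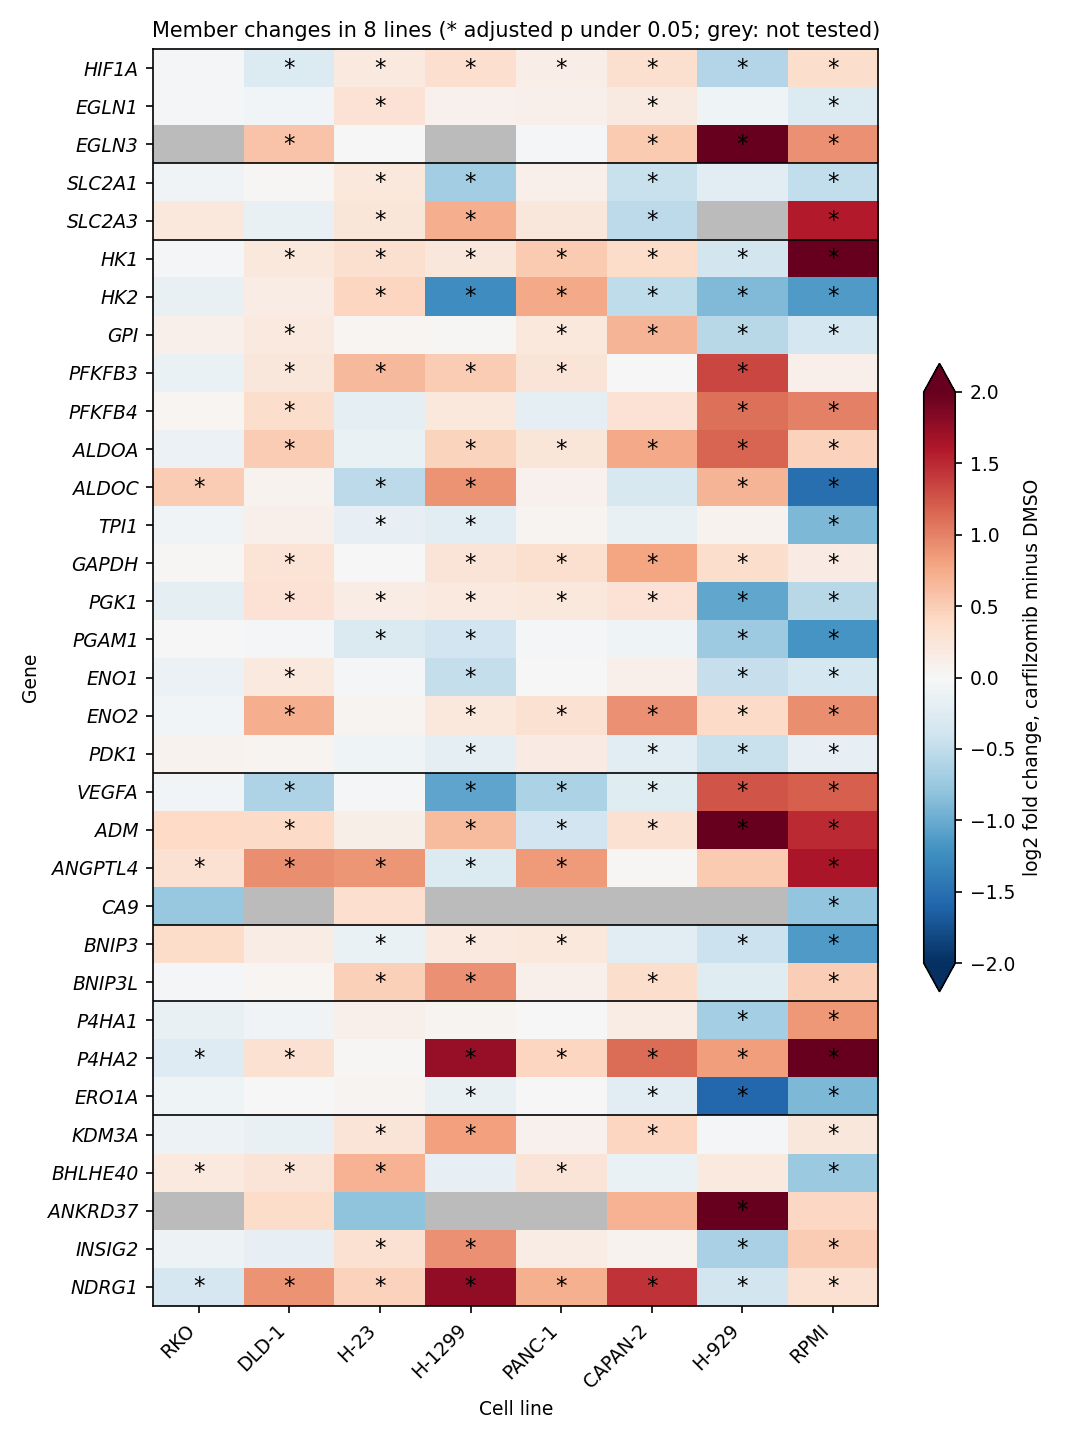
Log2 change (carfilzomib minus DMSO) of 33 genes (rows, grouped by role) in 8 lines (columns), colour scale from -2 to 2, with asterisks at an edgeR adjusted p under 0.05 and grey where a gene was not tested. RKO shows 5 asterisks and RPMI 31, and rows such as VEGFA, NDRG1 and PGK1 hold both colours.

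Across lines, 29 of the 34 genes were tested in all 8, and each of these was called in at least 1, as were 96.2% of the 11622 genes tested in all lines. Of the 29, 6 were called higher in at least 6 lines (4.06% of all those genes): NDRG1, P4HA2, ENO2, ALDOA, HK1 and GAPDH. HK1 reaches 6 lines only with its call in RPMI, where its counts were at trace level. ENO2, ALDOA, HK1 and GAPDH had exactly 6 higher calls, and each lost at least 1 of them in fits that left out 1 library. Lower calls in at least 6 lines numbered 0 (4.27% of all genes), and PGAM1, ERO1A, PDK1, HK2 and VEGFA came nearest with 4 lines each. As many as 18 of the 29 were called higher in 1 line and lower in another (47.8% of all genes). The values are given by role, from the oxygen sensors to the targets.

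HIF1A (ENSG00000100644, chr14:61695513-61748259, GRCh38), which encodes the oxygen-labile subunit, changed by between -0.59 and 0.35 on the log2 scale. In H-23 it stood at 241, 245 and 245 CPM in the DMSO libraries and at 271, 284 and 285 in those with carfilzomib. The groups did not overlap, and the log2 change was 0.201 (SE 0.034, adjusted p = 3.63e-04). H-1299 gave 155, 176 and 169 CPM in DMSO and 213, 212 and 208 in carfilzomib. CAPAN-2 gave 173, 173 and 161 in DMSO and 221, 203 and 207 in carfilzomib. In RPMI the values were 82.4, 73.1 and 76.1 and 99.9, 98.7 and 95.9. All treated libraries of these lines stood above all controls, with log2 changes of 0.34, 0.32 and 0.35, and PANC-1 rose by 0.13, from 122, 120.1 and 117 to 131, 131 and 133 CPM. HIF1A fell in 2 lines. DLD-1 went from 214, 197 and 223 to 179, 176 and 173 CPM (-0.27, SE 0.051, adjusted p = 0.00395). H-929 went from 105, 117 and 109.7 to 79.4, 75.8 and 65.8 (-0.59, SE 0.094, adjusted p = 1.17e-04), again without overlap. RKO had 94.01, 97.1 and 94.6 CPM in DMSO and 89.2, 95.7 and 93.2 in carfilzomib, overlapping values that were not called. The average over the 8 lines was 0.015 (SE 0.019, adjusted p = 0.676), and the lines differed (adjusted p = 3.47e-16).

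The prolyl hydroxylase EGLN1, the main oxygen sensor of the pathway, was called in 3 lines, higher in H-23 (0.296) and CAPAN-2 (0.17) and lower in RPMI (-0.28). EGLN3, a hydroxylase that is itself induced by HIF, showed the largest change of the set. In H-929 it stood at 0.683, 0.379 and 1.09 CPM with DMSO and at 18.04, 21.3 and 24.2 with carfilzomib. These rest on 7 to 16 reads per control library and 179 to 222 per treated library. The log2 change was 4.91 (SE 0.31, adjusted p = 1.85e-08). EGLN3 also rose in RPMI (0.92, from a mean of 21.6 to 41.03 CPM), DLD-1 (0.57) and CAPAN-2 (0.52). It was not called in H-23 or PANC-1 and was too low to test in RKO and H-1299. Its average of 0.89 fell to 0.33 without H-929, with an adjusted p of 0.129.

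Of 13 other regulators of the HIF pathway, 3 were called higher (19.8% of all genes) and 5 lower (23.9%) on the average over the lines, with a median of 0.031 beside 0.016 for all genes. EPAS1, the HIF-2 subunit that shares the partner ARNT, stood out with an average of 0.73 (SE 0.045, adjusted p = 1.08e-18). It was called higher in 4 of 8 lines, and H-929 gave by far the largest change in that average. In H-929 EPAS1 went from 1.42, 1.68 and 3.06 CPM to 28.6, 24.8 and 33.3 (log2 change 3.83, SE 0.25, adjusted p = 2.70e-08), and it also rose in H-1299 (1.47, at 1.29 CPM or less in every library), H-23 (0.53) and PANC-1 (0.44). The remaining averages that passed the test were 0.20 for CITED2, a competitor of HIF for its coactivator, 0.094 for HIF1AN, the asparaginyl hydroxylase, -0.086 for VHL, -0.13 for ARNT, -0.11 and -0.18 for ELOB and RBX1 of the VHL ligase, and -0.19 for MXI1. CUL2 (0.031), ELOC (-0.062), ARNT2 (0.36), EGLN2 (0.53, tested in 1 line) and HIF3A did not pass it.

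The glucose transporters SLC2A1 (GLUT1) and SLC2A3 (GLUT3) differed widely between lines before treatment. In DMSO, SLC2A1 was highest in DLD-1 with 596 ± 26.5 CPM (SD, n = 3, scaled over all libraries) and CAPAN-2 with 552 ± 37.5, whose replicates overlapped, and lay between 41.4 and 148 in the other 6 lines. SLC2A3 was at 459 ± 9.02 CPM in H-23, 65.6 ± 5.02 in H-1299 and 62.6 ± 5.27 in CAPAN-2, the last 2 overlapping, and at 0.42 in PANC-1 and 0.12 in H-929. The hexokinases, which trap glucose in the cell by phosphorylation, also varied. HK1 was at 244 ± 3.93 CPM in RKO and at 0.18 ± 0.087 in RPMI, and HK2 at 215 ± 12.6 in RKO, 197 ± 7.48 in H-929 and 3.62 ± 0.37 in PANC-1. Per kilobase of exon, which allows genes to be compared, the DMSO level of GAPDH was 615 to 2299 CPM per kb, that of ENO1 173 to 1031 and that of TPI1 148 to 629, whereas SLC2A1 lay between 8.77 and 126 and HK2 between 0.60 and 35.5. HIF1A was highest in H-23 with 220.0 ± 3.88 CPM, and lowest in RKO and RPMI, where it overlapped at 85.5 and 87.0.

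**Figure D2:**
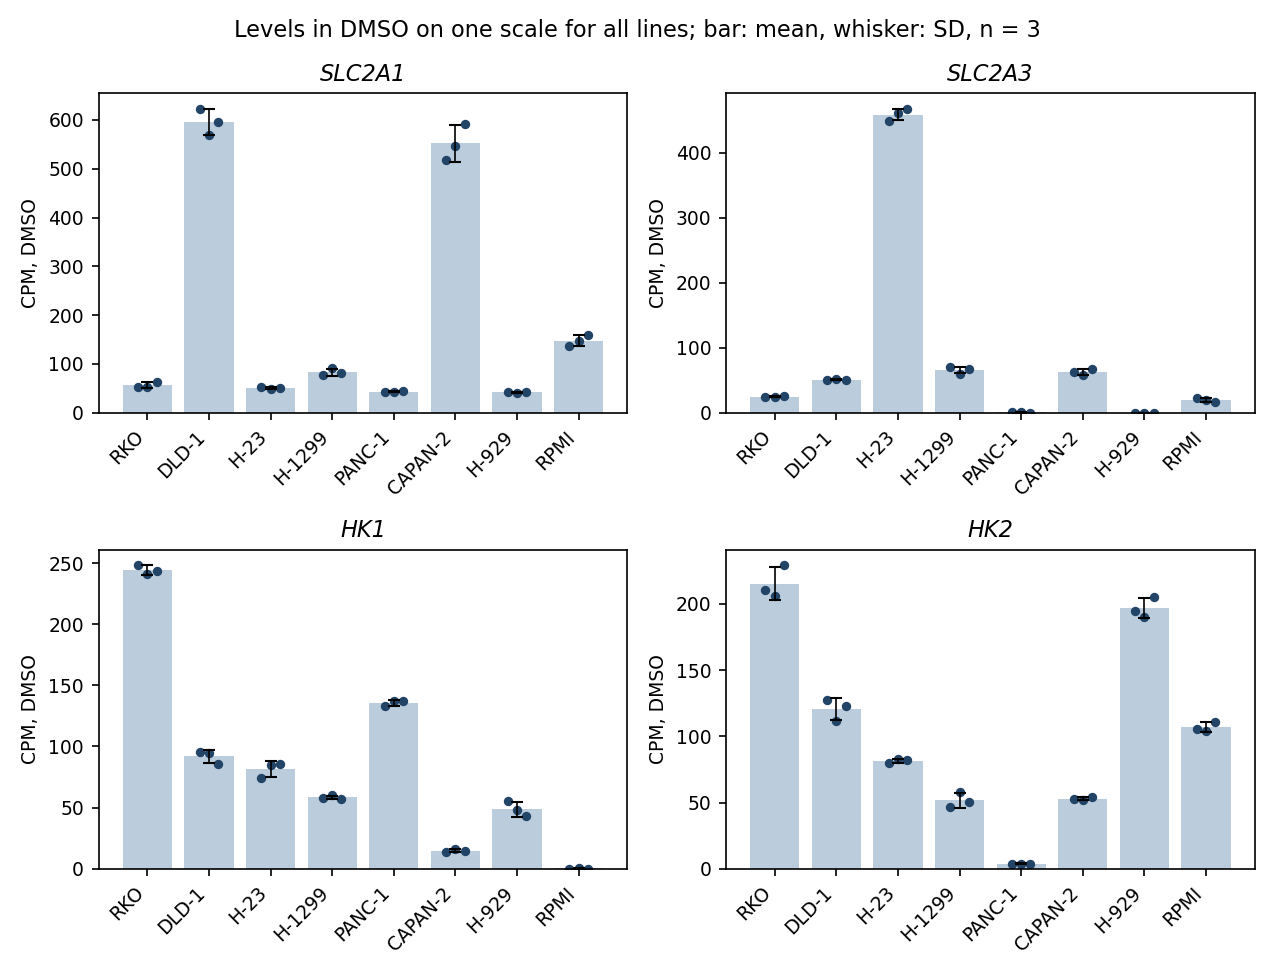
Level in the DMSO libraries (CPM scaled over all 48 libraries, bars from 0 are means, error bars SD, points the 3 replicates) of SLC2A1, SLC2A3, HK1 and HK2 in 8 lines. SLC2A1 stands at 596 in DLD-1 and 552 in CAPAN-2, SLC2A3 at 459 in H-23, and HK1 at 0.18 in RPMI.

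Both transporters rose in H-23 (SLC2A1 0.22, SLC2A3 0.25) and fell in CAPAN-2. There SLC2A3 had the largest fall of the set, from 57.95, 53.03 and 62.7 CPM to 42.6, 41.3 and 37.4, with no overlap (log2 change -0.52, SE 0.072, adjusted p = 2.95e-05), and SLC2A1 fell by a similar amount (-0.45). In 2 lines they went opposite ways. SLC2A3 rose in H-1299 (0.72) and RPMI (1.58), while SLC2A1 fell there (-0.69 and -0.49). The log2 ratio of SLC2A3 to SLC2A1 rose by 1.41 in H-1299 (from -0.33 ± 0.24 to 1.08 ± 0.073, SD, n = 3) and by 2.06 in RPMI (from -2.93 ± 0.31 to -0.86 ± 0.14), each without overlap. SLC2A3 was too low to test in H-929, and neither transporter was called in RKO, DLD-1 or PANC-1. The average change was -0.24 for SLC2A1 (adjusted p = 5.09e-10) and 0.505 for SLC2A3 (adjusted p = 1.78e-05).

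Among the enzymes, 14 of 15 could be tested. Of these 14, DLD-1 had 9 called higher (10.9% of all genes) and 0 lower (12.1%), PANC-1 8 (20.5%) and 0 (18.2%), and CAPAN-2 6 (25.7%) and 2 (26.7%). H-1299 had 7 higher (29.8%) and 5 lower (31.3%), and H-23 4 (17.7%) and 3 (16.2%). In H-929 the counts were 6 higher (26.4%) and 7 lower (26.2%), in RPMI 5 (31.3%) and 8 (32.2%), and in RKO 1 (3.62%) and 0 (5.29%). The summed share of 11 core enzymes in a library's counts was 0.800% to 0.817% in DLD-1 with DMSO and 0.947% to 0.987% with carfilzomib. In PANC-1 it was 0.600% to 0.614% and then 0.667% to 0.684%, and in CAPAN-2 0.436% to 0.518% and then 0.637% to 0.659%. RPMI had 1.24% to 1.25% with DMSO and 1.08% to 1.11% with carfilzomib. The 11 (HK1, HK2, GPI, ALDOA, ALDOC, TPI1, GAPDH, PGK1, PGAM1, ENO1 and ENO2) together took a larger share after treatment in the first 3 lines and a smaller one in RPMI, a description without a test. GAPDH and ENO1 were the most abundant of the 11 in every line, so the sums follow a few genes. In CAPAN-2 GAPDH rose by 0.79 on the log2 scale. In RPMI the mean of ENO1 fell from 4827 to 3796 CPM and that of PGK1 from 1383 to 941, while GAPDH was called higher. H-1299 was just apart, at 1.18% to 1.23% and then 1.10% to 1.18%, and RKO, H-23 and H-929 overlapped.

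GAPDH, which carries out the first energy-yielding step, was called higher in 6 lines. CAPAN-2 gave 2148, 2276 and 1805 CPM in DMSO and 3492, 3584 and 3669.9 in carfilzomib (log2 change 0.79, SE 0.072, adjusted p = 4.13e-07), the largest rise of this gene. PANC-1 went from 1817, 1832 and 1900.3 to 2373, 2293 and 2293 (0.33). H-929 went from 1901, 2097 and 1809.9 to 2611, 2288 and 2503 (0.35). The treated libraries were above the controls in each of these lines. DLD-1 gave 4441, 4386 and 4519 in DMSO and 5404, 5208 and 5464 after treatment (0.27). H-1299 gave 5711, 5741 and 5941 and 6703, 7306 and 6898 (0.27). RPMI gave 4614, 4406 and 4407 and 4971, 5218 and 4907 (0.17, adjusted p = 0.00626). Again no treated library overlapped a control, though the RPMI call was lost without DMSO replicate 2 (adjusted p = 0.0579). RKO (2325, 2139 and 2351, then 2221, 2355 and 2318) and H-23 (7525, 7619 and 7639, then 7392, 7464 and 7921) overlapped and were not called.

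ENO2, the enolase typical of neurons, rose in 6 lines, at DMSO levels of 1.62 to 35.1 CPM per kb beside the 173 to 1031 of ENO1. RPMI showed 27.8, 29.4 and 26.6 CPM in DMSO and 57.1, 49.4 and 52.6 in carfilzomib (log2 change 0.93, SE 0.074, adjusted p = 1.22e-07). CAPAN-2 showed 6.02, 5.94 and 7.31 and 11.7, 13.1 and 11.5 (0.91, SE 0.12). DLD-1 showed 12.99, 13.6 and 13.4 and 21.2, 21.5 and 23.4 (0.73). In all of them the groups were apart. PANC-1 had 20.7, 20.9 and 22.3, then 26.8, 26.9 and 25.6 (0.31), and H-929 30.6, 24.5 and 25.7, then 39.6, 31.7 and 33.9 (0.38). H-1299 had 16.1, 16.6 and 16.2, then 17.4, 19.2 and 19.7 (0.204). The calls in H-1299 and H-929 were lost in 4 and 3 of 6 fits that left out 1 library, with adjusted p-values of up to 0.159 and 0.148. RKO, the line with the most ENO2, stayed at 169.6, 149.7 and 182 CPM against 157, 172 and 153, and H-23 at 25.3, 22.8 and 22.9 against 25.7, 22.8 and 25.4. ENO1, the ubiquitous enolase, rose in DLD-1 (0.19) and fell in H-1299 (-0.47), H-929 (-0.47) and RPMI (-0.35). The log2 ratio of ENO2 to ENO1 rose without overlap in 6 lines, by 0.33 in PANC-1 to 1.27 in RPMI.

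Aldolase A (ALDOA, ENSG00000149925, chr16:30064164-30070457), which splits fructose bisphosphate, rose in 6 lines, and its span overlaps another annotated gene on the same strand. Its row was low for an enzyme of this pathway, at 5.30 to 23.7 CPM per kb in DMSO beside 148 to 629 for TPI1. Whether reads of ALDOA are missing from the row was not tested, so its values are uncertain. H-929 had 62.4, 48.9 and 63.8 CPM in DMSO and 139, 124 and 131 in carfilzomib (log2 change 1.17, SE 0.11, adjusted p = 6.19e-07). CAPAN-2 had 37.8, 33.5 and 31.4, then 56.3, 60.1 and 57.9 (0.76). RPMI had 34.5, 36.1 and 36.5, then 52.2, 50.4 and 45.7 (0.47). The treated values were all higher here. DLD-1 (26.6, 32.7 and 21.1, then 36.97, 34.99 and 42.1; 0.503) and PANC-1 (32.7, 36.9 and 35.9, then 43.6, 43.5 and 37.6; 0.24) each lost the call in 2 of 6 fits without 1 library (adjusted p up to 0.0896 and 0.0547). H-1299 went from 20.4, 18.9 and 18.04 to 29.01, 25.1 and 24.2 (0.45). RKO (122, 84.4 and 104, then 103, 94.1 and 88.2) and H-23 (29.8, 24.7 and 29.7, then 24.8, 24.9 and 26.9) were not called.

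Among the called genes of the set, ALDOC, the brain-type aldolase, held the largest rise of RKO and the largest falls of H-23 and RPMI. In RKO it rose from 33.1, 32.1 and 40.2 CPM to 48.6, 50.6 and 52.2 (log2 change 0.51, SE 0.087, adjusted p = 0.00309). In H-23 it fell from 5.53, 6.296 and 5.35 to 3.24, 4.63 and 3.99 (-0.52, SE 0.15, adjusted p = 0.0165). In RPMI it fell from 73.8, 72.1 and 64.6 to 28.1, 24.97 and 21.3 (-1.502, SE 0.091, adjusted p = 7.49e-09). In each of the 3 lines the groups were apart. It also rose in H-1299 (0.904) and H-929 (0.68), so that its average of -0.051 was not called.

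HK1 rose in 6 lines and fell in 1. PANC-1 gave 135, 138 and 138 CPM in DMSO and 202, 195 and 195 in carfilzomib (log2 change 0.53, SE 0.033, adjusted p = 9.71e-08). CAPAN-2 gave 12.7, 14.6 and 13.4 and 17.5, 17.97 and 16.95 (0.37). H-23 gave 82.2, 94.8 and 94.1 and 109, 112 and 117 (0.32). In these lines every treated library was above every control. H-1299 gave 52.4, 55.7 and 52.96 and 62.3, 64.3 and 61.5 (0.22), and DLD-1 96.3, 97.6 and 88.2 and 107, 110.5 and 109.7 (0.21), a call lost without carfilzomib replicate 2 or 3 (adjusted p = 0.0537 and 0.0549). In RPMI the transcript was barely present, at 0.116, 0.248 and 0.109 CPM before and 0.551, 0.843 and 1.69 after treatment (2 to 7 and 10 to 38 reads), so its log2 change of 2.68 (SE 0.57) concerns a trace amount. H-929 fell from 51.01, 44.5 and 40.1 to 38.3, 29.97 and 36.8 (-0.37, adjusted p = 0.0263), a call lost in 2 of 6 fits without 1 library (adjusted p = 0.0730 and 0.121), and RKO stayed at 280.3, 271 and 266 against 271, 264 and 256.

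HK2, the hexokinase most often tied to tumour glycolysis, fell in 4 lines and rose in 2. H-1299 had 42.3, 53.9 and 46.7 CPM in DMSO and 18.4, 20.3 and 21.7 in carfilzomib. That log2 change of -1.24 (SE 0.093, adjusted p = 1.36e-07) was the largest fall of the set in that line. HK2 also fell in RPMI (-1.13), H-929 (-0.88) and CAPAN-2 (-0.51), and rose in PANC-1 (0.76, from a mean of 3.65 to 6.17 CPM) and H-23 (0.44). Relative to HK1 it fell without overlap in 4 lines, the log2 ratio moving by -1.46 in H-1299, -0.88 in CAPAN-2, -0.51 in H-929 and, with trace counts of HK1, -3.78 in RPMI.

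Of the remaining enzymes, PGAM1 (phosphoglycerate mutase), TPI1 (triose phosphate isomerase) and PDK1, the kinase that holds pyruvate out of the mitochondrial cycle, were called lower in 3 or 4 lines and higher in 0. PGAM1 fell in H-23 (-0.29), H-1299 (-0.38), H-929 (-0.73) and RPMI (-1.18). TPI1 fell in H-23 (-0.16), H-1299 (-0.21) and RPMI (-0.89). PDK1 fell most in H-929 (-0.44), and also in CAPAN-2 (-0.23), H-1299 (-0.18) and RPMI (-0.16), and it was most abundant in H-929, at 485 ± 23.7 CPM in DMSO. PGK1, the first ATP-forming enzyme, was called higher in 5 lines, by 0.15 in H-23 to 0.29 in CAPAN-2, and lower in H-929 (-1.04) and RPMI (-0.56). The GPI row, phosphoglucose isomerase, rose in CAPAN-2 (0.68), PANC-1 (0.21) and DLD-1 (0.195) and fell in H-929 (-0.56) and RPMI (-0.35). PFKFB3 and PFKFB4 make the activator of phosphofructokinase. PFKFB3 rose in 5 lines, most in H-929 (1.33), and PFKFB4 in DLD-1 (0.35), H-929 (1.104) and RPMI (1.004), and neither fell in any line.

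**Figure D3:**
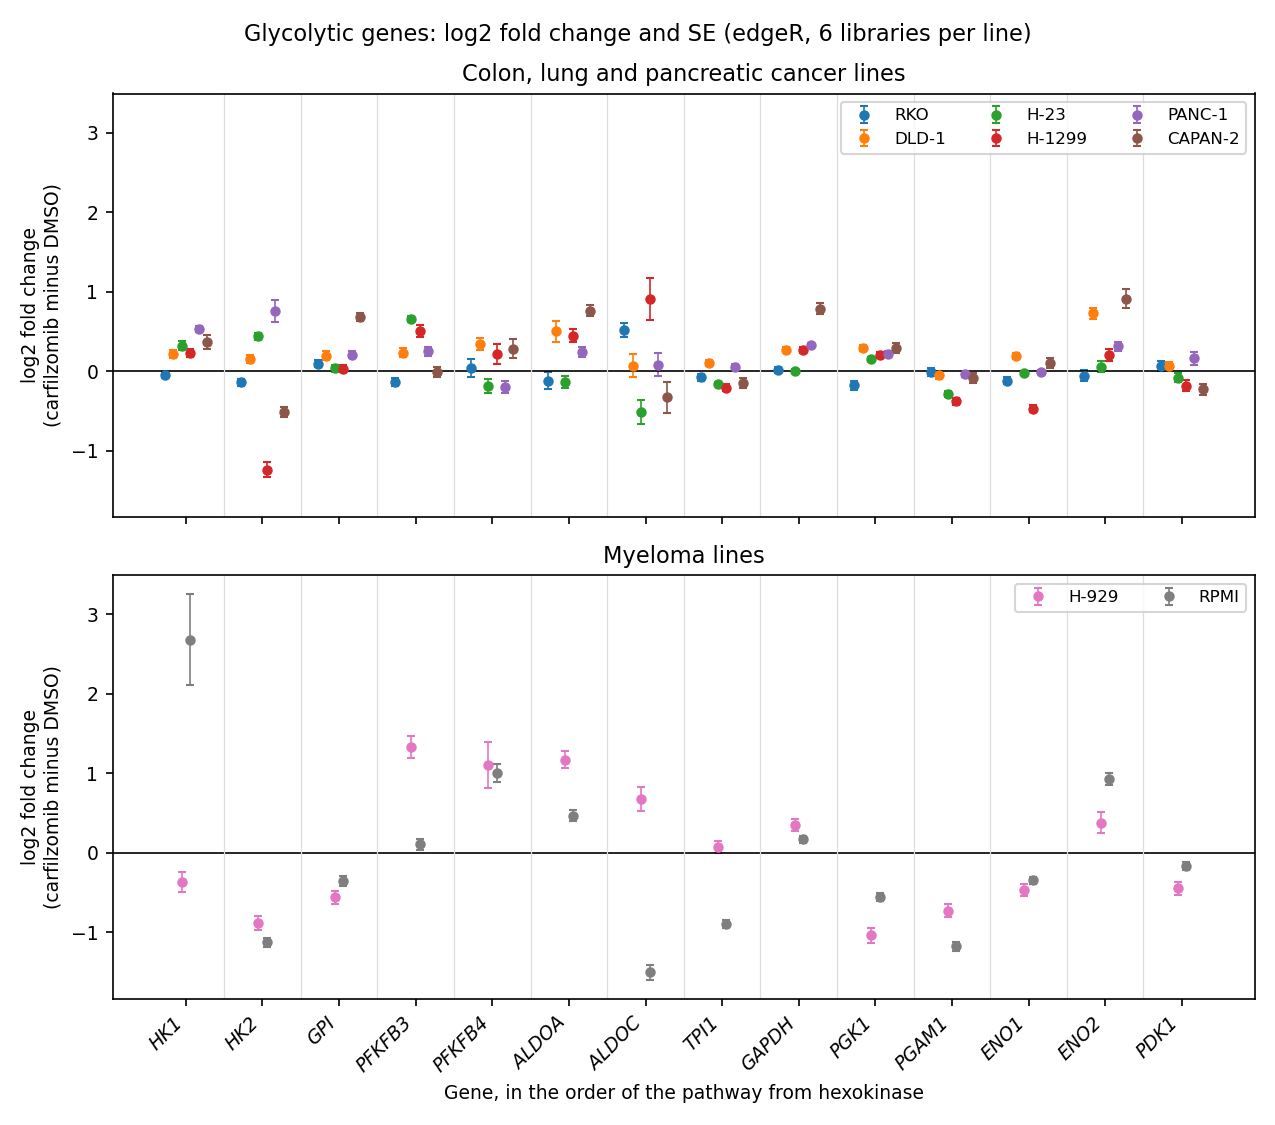
Log2 change (carfilzomib minus DMSO, error bars SE) of 14 enzymes in pathway order, upper panel the colon, lung and pancreatic cancer lines and lower panel the 2 myeloma lines. In the lower panel PGK1 (-1.04 and -0.56) and PGAM1 (-0.73 and -1.18) are below 0 and ALDOA (1.17 and 0.47) above it.

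VEGFA, the main angiogenic growth factor, rose in both myeloma lines and fell in 4 of the other 6. DLD-1 gave 177, 155 and 168 CPM in DMSO and 102, 113 and 110.2 in carfilzomib (log2 change -0.62, SE 0.059, adjusted p = 5.81e-05). PANC-1 gave 96.2, 94.4 and 98.6 and 60.7, 63.8 and 62.3 (-0.63, SE 0.038, adjusted p = 7.76e-08). These were the largest falls of the set in both lines, with no overlap. VEGFA also fell in H-1299 (48.3, 39.4 and 51.7, then 24.3, 22.1 and 20.4; -1.06) and CAPAN-2 (-0.25). In the myeloma lines it rose, from 122, 127 and 110.1 to 279.8, 274 and 303 CPM in H-929 (1.25, adjusted p = 2.41e-08) and from 67.3, 63.9 and 66.7 to 159.5, 141 and 151 in RPMI (1.19, adjusted p = 8.85e-10). RKO and H-23 were not called.

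ADM, the vasodilator peptide adrenomedullin, was called higher in 5 lines. H-929 went from 8.71, 9.46 and 8.96 CPM to 36.6, 36.01 and 43.99, and RPMI from 36.1, 36.4 and 35.3 to 94.03, 95.7 and 114. The changes of 2.101 (SE 0.14) and 1.496 (SE 0.074) compare with 0.63 in H-1299, 0.38 in DLD-1 and 0.305 in CAPAN-2. In PANC-1, the line with the most ADM in DMSO (326 CPM), it fell by 0.38 on the log2 scale. ANGPTL4, an inhibitor of lipoprotein lipase, gave the largest rise of 3 lines. DLD-1 had 3.28, 2.68 and 3.23 CPM in DMSO and 5.68, 5.01 and 6.84 in carfilzomib (log2 change 0.93, SE 0.16, adjusted p = 0.00194). H-23 had 29.6, 25.4 and 29.2 and 50.9, 55.4 and 50.1 (0.89, SE 0.063, adjusted p = 1.57e-07). PANC-1 had 37.9, 37.6 and 48.1 and 73.1, 77.7 and 72.4 (0.85, SE 0.077, adjusted p = 2.64e-06). The treated libraries of all 3 lines lay above the controls. It rose in RKO (0.31) and RPMI (1.63) as well and fell in H-1299 (-0.27). CA9, the tumour carbonic anhydrase and a classic HIF marker, was high enough to test only in RKO, H-23 and RPMI, and fell in RPMI (-0.796, from a mean of 1.86 to 1.06 CPM).

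**Figure D4:**
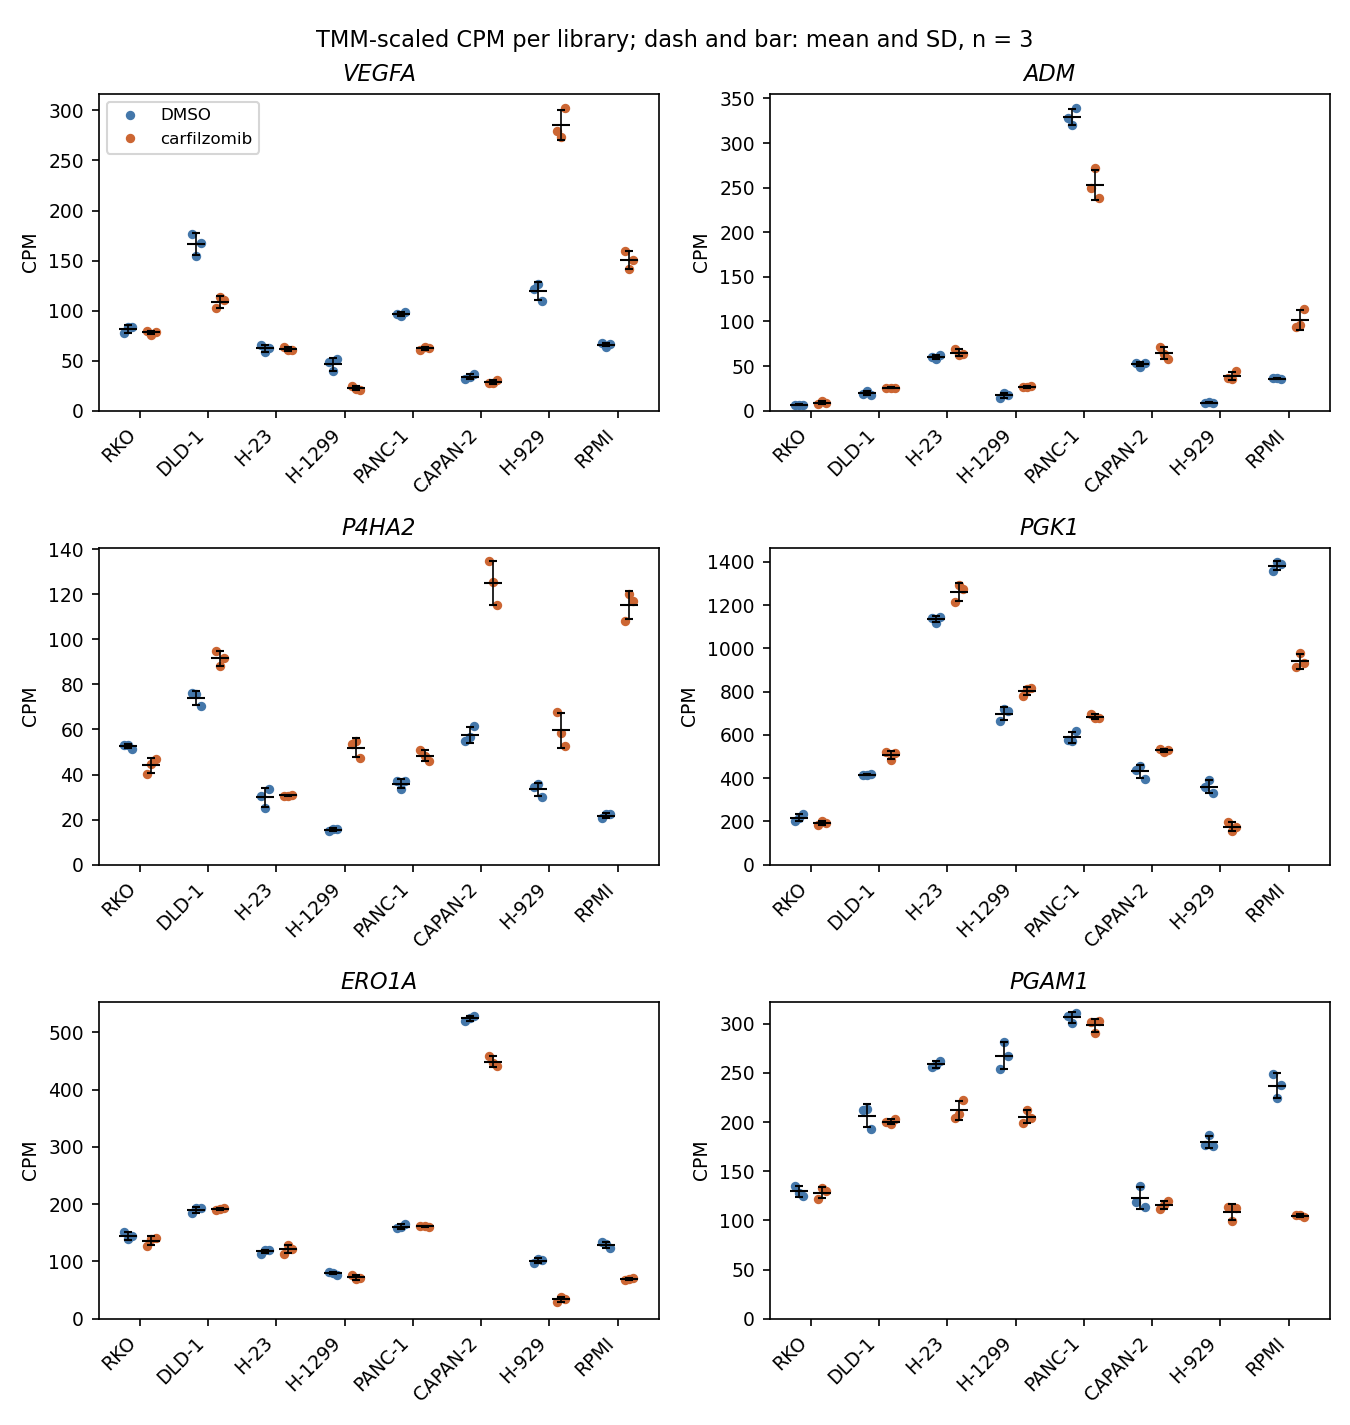
CPM of every library (points, DMSO and carfilzomib side by side within each of 8 lines, vertical axis in CPM on the scale printed on each panel) for VEGFA, ADM, P4HA2, PGK1, ERO1A and PGAM1. VEGFA lies higher with carfilzomib in H-929 and RPMI and lower in DLD-1, H-1299, PANC-1 and CAPAN-2, and ERO1A falls most in H-929.

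The mitophagy receptors, which tag mitochondria for degradation, did not move together. BNIP3 fell in H-23 (-0.14), H-929 (-0.43) and RPMI (-1.14) and rose in H-1299 (0.19) and PANC-1 (0.22). BNIP3L rose in H-1299 (0.91), RPMI (0.49), H-23 (0.48) and CAPAN-2 (0.35) and fell in none. In RPMI the log2 ratio of BNIP3 to BNIP3L went from -1.30 ± 0.17 to -2.93 ± 0.11 (SD, n = 3), without overlap.

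P4HA2, a catalytic subunit of the collagen prolyl hydroxylase, had the largest average of the set after EGLN3, 0.78 (SE 0.030, adjusted p = 5.13e-26). RPMI showed 20.7, 22.3 and 22.3 CPM in DMSO and 108, 120.05 and 117 in carfilzomib (log2 change 2.397, SE 0.063, adjusted p = 5.61e-12), the largest rise of the set there among genes with a group mean of at least 50 reads. H-1299 showed 14.7, 15.96 and 15.9 and 53.5, 54.9 and 47.1 (1.74). CAPAN-2 showed 54.9, 56.5 and 61.4 and 135, 125 and 115 (1.12). These were more than 2-fold, with groups far apart. H-929 went from 34.4, 35.6 and 30.2 to 67.9, 58.3 and 52.6 (0.83). PANC-1 went from 37.1, 33.6 and 37.1 to 50.9, 48.4 and 45.8 (0.43), and DLD-1 from 76.3, 75.5 and 70.6 to 94.8, 88.1 and 91.9 (0.305). No higher call of P4HA2 was lost when 1 library was left out. RKO was called lower, from 52.97, 53.1 and 51.5 to 40.3, 44.8 and 47.01 (-0.25, adjusted p = 0.0413), a call lost in all 6 such fits (adjusted p 0.0555 to 0.149), and H-23 stayed at 30.7, 25.4 and 33.8 against 30.5, 30.6 and 31.1. Its paralog P4HA1 was called in the myeloma lines alone, lower in H-929 (-0.68) and higher in RPMI (0.86). The log2 ratio of P4HA2 to P4HA1 rose without overlap in 6 lines, by 0.38 in DLD-1 to 1.68 in H-1299. ERO1A, the oxidase that drives disulfide formation in the endoplasmic reticulum, fell from 96.5, 105 and 103 CPM to 29.8, 37.8 and 34.5 in H-929 (log2 change -1.57, SE 0.105, adjusted p = 3.25e-08), the largest fall there. It also fell in RPMI (-0.903), CAPAN-2 (-0.22) and H-1299 (-0.15) and rose in no line.

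NDRG1, a stress and differentiation gene induced by hypoxia, rose in 6 lines. H-1299 gave 0.903, 0.609 and 0.773 CPM in DMSO and 3.01, 2.43 and 2.43 in carfilzomib (log2 change 1.77, SE 0.25, adjusted p = 4.39e-05), the largest rise there at a low level of 24 to 83 reads per library. CAPAN-2 gave 21.5, 22.3 and 21.5 and 60.2, 56.4 and 60.5 (1.44, SE 0.060, adjusted p = 1.67e-10), the largest rise of that line. DLD-1 gave 32.9, 32.2 and 35.5 and 65.2, 54.4 and 67.9 (0.897). The groups were apart in these lines and also in PANC-1 (3.95, 5.25 and 5.89, then 7.93, 8.07 and 8.81; 0.71). H-23 went from 144, 149 and 144 to 202, 202 and 198 (0.46), and RPMI from 49.4, 45.4 and 45.1 to 56.3, 55.1 and 61.4 (0.31). No higher call was lost without 1 library. NDRG1 fell in H-929, from 88.6, 84.1 and 73.9 to 67.004, 62.3 and 61.1 (-0.37, adjusted p = 0.00487). In RKO it fell from 56.01, 47.4 and 55.96 to 41.8, 42.2 and 42.2 (-0.34, adjusted p = 0.0142). That was the largest fall among the called genes of the set in RKO, and the call was lost in 3 of 6 fits (adjusted p up to 0.0665).

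KDM3A, a histone demethylase, rose in H-1299 (0.83), CAPAN-2 (0.43), H-23 (0.25) and RPMI (0.22) and fell in none. The transcriptional repressor BHLHE40 rose in H-23 (0.700), DLD-1 (0.27), PANC-1 (0.26) and RKO (0.19) and fell in RPMI (-0.75). INSIG2, which retains the sterol sensor in the endoplasmic reticulum, rose in H-1299 (0.92), RPMI (0.51) and H-23 (0.31) and fell in H-929 (-0.65). ANKRD37, testable in 5 lines, rose in H-929 (2.04, from a mean of 0.583 to 2.44 CPM).

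Over the 8 lines together, fitted in 1 model of 48 libraries, 14 of 33 genes had an average change above 0 (19.8% of 22309 genes) and 10 below 0 (23.9%) at an adjusted p under 0.05. The error of these averages comes from replicates. When the 8 lines served as units, 0 genes passed in either direction at an adjusted p under 0.05, and 6 had an unadjusted p under 0.05 (ADM, P4HA2, ENO2, ALDOA, PGAM1 and ANGPTL4), so the averages describe these lines. The test that the 8 changes are equal was passed by 32 of 33 genes (67.7% of all genes), the exception being CA9 (adjusted p = 0.0578). Of the 33, 19 passed this test and were called higher in 1 line and lower in another (30.1% of all genes).

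The myeloma lines were then set against the other 6, as the difference between the mean log2 changes. Of 33 genes, 12 had a higher change in the myeloma lines (19.1% of all genes) and 19 a lower one (25.2%), and the median difference was -0.29 against 0.064 over all genes. The largest differences upward that passed the test were EGLN3 (2.55, SE 0.32, adjusted p = 4.52e-09, near 0 in RKO and H-1299), SLC2A3 (1.58, SE 0.35, with trace counts in H-929), VEGFA (1.55, SE 0.059, adjusted p = 1.29e-25) and ADM (1.45, SE 0.084, adjusted p = 2.14e-19). Downward they were ERO1A (-1.28, SE 0.046, adjusted p = 1.45e-26), PGK1 (-1.06, SE 0.052, adjusted p = 9.60e-22), HK2 (-1.02, SE 0.059) and BNIP3 (-0.997, SE 0.11). The PGK1 values show this split, with 359.6, 392 and 332 CPM before and 196, 156 and 176 after treatment in H-929. In RPMI PGK1 went from 1359.99, 1400.3 and 1389 to 912, 980.2 and 932, and in CAPAN-2 from 439, 458 and 397 to 534, 521 and 531. PGK1 and GPI were called lower in both myeloma lines and in no other, and VEGFA higher in both and in no other. Of 31 genes tested in both myeloma lines, 8 were called lower in both (17.8% of all genes), 8 higher in both (13.5%) and 6 in opposite directions (7.57%). The promoter windows of the 8 genes called lower in both myeloma lines (PDK1, BNIP3, PGK1, ENO1, HK2, PGAM1, GPI and ERO1A) held ACGTG in 5 of 8, and those of the 8 called higher in both (ADM, VEGFA, EGLN3, P4HA2, PFKFB4, ENO2, ALDOA and GAPDH) in 3 of the 7 with a window. The 6 called in opposite directions in the 2 myeloma lines were HIF1A, NDRG1, P4HA1, ALDOC, HK1 and INSIG2. The comparison sets 2 lines against 6, its error is the spread between replicates and not between lines, and tumour type cannot be told apart from the line's drug concentration. H-929 and RPMI shared 22 called genes of the set, 16 in the same direction, where 80.5% of all genes called in both agreed in direction, and H-1299 and CAPAN-2 shared 17, 16 in the same direction (86.2% of all genes), while H-23 and H-929 shared 10, 3 in the same direction (54.3%).

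**Figure D5:**
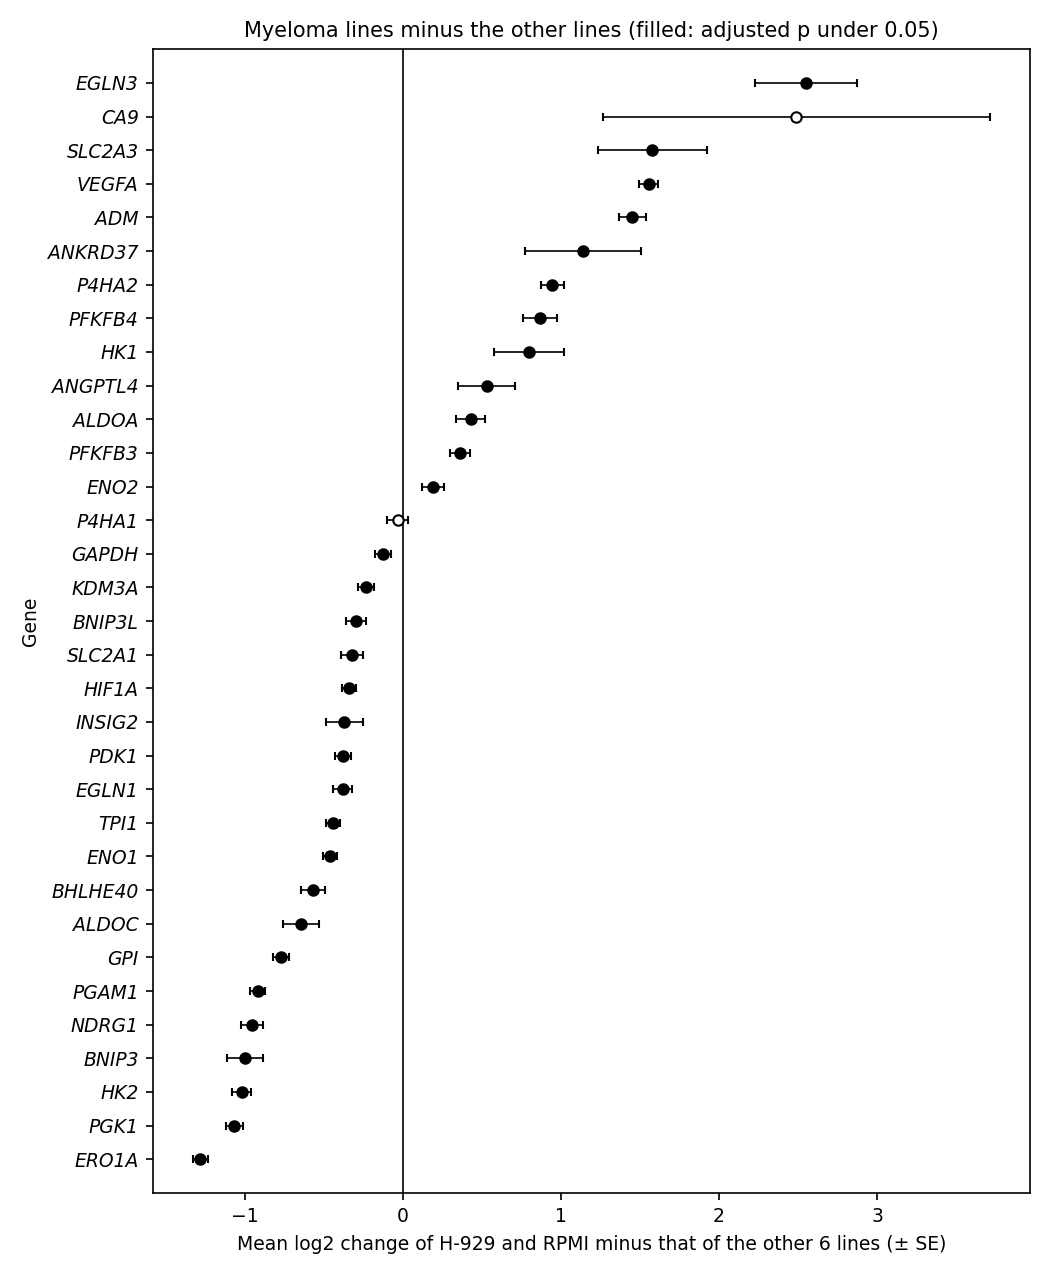
Difference of the mean log2 change of H-929 and RPMI from that of the other 6 lines (error bars SE from replicates) for 33 genes, filled points at an adjusted p under 0.05. EGLN3 (2.55) is at the upper end and ERO1A (-1.28) at the lower, and the open points are P4HA1 (-0.031) and CA9 (2.49, SE 1.22). The CA9 value rests on trace counts in H-929, with 0 reads in every control and at most 4 in a treated library. In RPMI CA9 was called lower (-0.796).

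Further genes of both pathways were called in both directions. Of 19 other hypoxia targets tested, 10 had an average above 0 (19.8% of all genes) and 5 below 0 (23.9%), with a median of 0.088 beside 0.016 for all genes, and in the myeloma comparison 8 were higher (19.1%) and 5 lower (25.2%). Of 19 other glycolysis and lactate genes, 4 had an average above 0 and 5 below 0 (median -0.050), with 2 higher and 9 lower in the myeloma comparison, beside the same shares of all genes. CA12, a membrane carbonic anhydrase, and HKDC1, a hexokinase-like gene, were the 2 with an average of at least 1 in size, 1.64 (SE 0.31) and 2.61 (SE 0.35). CA12 was called in no single line, and in the 5 lines where it could be tested its changes ran from -0.59 to 0.47. Its average lies above all of these, so it rests on lines where CA12 was too low to test. HKDC1 rose in 5 lines, and in CAPAN-2, the line where it was abundant, it went from 292, 311 and 316 CPM to 426, 412 and 407 (log2 change 0.44, SE 0.054, adjusted p = 8.63e-06), whereas in the other 4 it was at 1.92 CPM or less in every library.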

How the data were processed

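Total RNA of 48 cultures (8 lines, 2 treatments, 3 biological replicates) was sequenced from stranded libraries, per the labels' protocols. The authors deposited raw counts, 1 whole number per gene row and library. The submitters' processing notes name bcl2fastq 2.19, FastQC, Trimmomatic, HISAT2, DESeq2 and hg38 without roles. The counting program, annotation and use of strand are not given in the sources used here.

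Groups came from the sample labels. Each line was fitted on its 6 libraries with edgeR 4.0.16 (R 4.3.3): TMM scaling, filterByExpr, quasi-likelihood F test, Benjamini-Hochberg adjustment over all genes tested, call at an adjusted p under 0.05. CPM in the text are scaled by TMM within a line, except the DMSO levels compared between lines, which are scaled over all libraries. A joint fit of 22309 genes over 16 groups with trended dispersion gave the average, the difference between lines and the myeloma contrast. The steps were tested on simulated counts. Replicates of a group were never closer than 3.33 in chi-square per degree of freedom, where counting noise alone gives about 1. Totals of 9.12 to 64.4 M (mega) counts set the counting error only, since no molecular identifiers are known here.

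All 34 genes are named, with values per library for HIF1A, for genes called alike in at least 6 lines and for the largest rise and fall of each line. The largest rise and fall were taken among the calls of a line, for genes with a highest group mean of at least 50 counts. Values are also given for regulators of HIF and for other listed genes with an average of at least 1 in size. VEGFA, ADM and PGK1 were also given per library after their values were seen. The members, lists and rules were chosen with earlier results of these data known. Identifiers were matched to GENCODE 29 (32 of 34 members under their symbol), and promoter windows came from RefSeq. Alternatives were other scalings, filters and tests, a null fold of 1.5, the replicate number as a block, lines as units, summed rows of an identifier, and fits without a library, replicate number or line.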

Additional observations from a re-analysis of the deposited data

Results flagged for a closer look

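The change with carfilzomib differed between the 8 lines for 32 of 33 tested genes of the set (joint edgeR quasi-likelihood F test, adjusted p under 0.05), as for 67.7% of all genes. In the contrast of the myeloma lines with the other 6 lines, 12 genes had a higher (19.1% of all genes) and 19 a lower change (25.2%). Of the 33, 19 differed between lines and were called higher in 1 line and lower in another, as were 30.1% of all 22309 genes. The widest gaps between 2 lines with opposite calls were 3.04 for HK1 (log2 change in RPMI minus H-929, with 2 to 38 reads of HK1 per library in RPMI), 2.65 for P4HA2 (RPMI minus RKO), 2.48 for ADM (H-929 minus PANC-1), 2.41 for ALDOC (H-1299 minus RPMI) and 2.32 for VEGFA (H-929 minus H-1299). The lower call was lost in 2 of 6 fits without 1 library for HK1 in H-929 (adjusted p = 0.0730 and 0.121) and in all 6 for P4HA2 in RKO (0.0555 to 0.149). Each gap rests on the test over all 8 lines, and the named pairs were not tested alone.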

How the results depend on the processing

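With a null fold of 1.5 in place of no change, the counts of genes called higher and lower fell to 10 and 6 for RPMI, 7 and 3 for H-929, 6 and 2 for H-1299, 5 and 0 for CAPAN-2, 1 and 0 for each of PANC-1, H-23 and DLD-1, 0 and 0 for RKO, and 1 and 0 for the average. With lines as the units the average gave 0 higher and 0 lower (14 and 10 as reported; smallest adjusted p = 0.316, and 6 genes at an unadjusted p under 0.05). The 2 lower calls in RKO became 1 with library totals, 4 without a filter, 5 with the DESeq2 Wald test, 1 in one fit of all 48 libraries, and 0 to 3 without 1 library. Without 1 library the higher count ranged from 9 to 15 in DLD-1 and the lower count from 2 to 4 in H-23, and without 1 replicate number 8 to 12 genes were higher in the myeloma contrast.

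Averages of genes that move in both directions turned with single lines. VEGFA (-0.066) became 0.014 without DLD-1, 0.085 without H-1299 and 0.016 without PANC-1. P4HA1 (-0.0085) became 0.11 and PGK1 (-0.12) 0.033 without H-929, ALDOC (-0.051) became 0.16 without RPMI, and GPI (0.00042) -0.0997 without CAPAN-2. The myeloma difference of GAPDH (-0.12) became 0.011 with library totals. EGLN3 fell from 0.89 to 0.33 without H-929. The cause was not tested for any of these.

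With the replicate number as a block the counts of higher and lower genes were 17 and 13 for RPMI, 11 and 14 for H-929, 15 and 6 for CAPAN-2, 15 and 9 for H-1299, 14 and 2 for PANC-1 and DLD-1, 14 and 4 for H-23, 3 and 3 for RKO, 14 and 9 for the average and 12 and 19 for the myeloma contrast, and 31 genes differed between lines. In the labels used here, same-numbered libraries share only a number. Their deviations correlated between -0.065 and 0.042, and both groups' libraries matched their own number best only in H-23 and PANC-1. These values cannot decide whether same-numbered libraries were set up together. Of 319 values, 314 kept their call (higher, lower or not called) with DESeq2's size factors, 304 with library totals and 318 with rows of an identifier summed. Of 250 values, 242 did so with DESeq2's Wald test. Genes with few reads (HK1 in RPMI, NDRG1 in H-1299, EGLN3 in the H-929 controls) are limited by depth.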
